A study of Caenorhabditis elegans with 16 samples.

Results

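The miR52to57seed embryos carry the seed of the miR-51 family inside the hairpin of another miRNA, mir-57, and they are described here against miR-51null embryos, which lack all family loci. The libraries were chosen by their strain, MLC1918 for miR52to57seed and MLC1800 for miR-51null, each sequenced in biological duplicate, so that 4 of the 16 libraries of the series make up the comparison. Every library held small RNAs of 50 whole Caenorhabditis elegans embryos collected at the comma stage, when the embryo begins to elongate. In MLC1918 (nDf67, mir-52(luc141), nDf58), the mir-52 hairpin was exchanged at its own locus for a mir-57 hairpin with a mutated seed, and the other family loci are deleted. MLC1800 (nDf67, n4100, nDf58) lacks all 6 family members in its genome and carries the extrachromosomal array lucEx1057, a fosmid with the miR-54 cluster beside fluorescent markers. Whether the collected MLC1800 embryos held the array is not stated in the sources used here. Each strain is 1 line. 3 further strains frame the comparison: miR-52to51 (MLC1997) and miR52to53 (MLC1917), in which the mir-52 hairpin was exchanged for that of mir-51 or mir-53, and wild type (N2). All of these strains but N2 share the deletions nDf67 and nDf58. The remaining 3 strains of the series keep all or some of the miR-54 cluster and no other family locus. All 16 libraries have the same batch label.

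A miRNA is a short RNA cut from a hairpin precursor. The arm that Argonaute retains is the guide strand, and the other arm, the passenger strand, is mostly degraded. The seed, near the 5′ end of the guide, provides most of the pairing to target mRNAs, so guides with the same seed form a family. The miR-51 family comprises the miRNAs that share the seed of miR-51, the worm counterpart of miR-100, and its combined loss is lethal in embryos and young larvae. miR-57 is also related to miR-100 but has another seed and so lies outside the family, and its own gene is present in every strain of the series. The comparison asks how the remaining miRNAs stand when the family seed is supplied by the hairpin of this related miRNA.

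In the WBcel235 annotation, mir-52, the site of the exchange, is on chromosome IV (14034008 to 14034107, plus strand) and overlaps only the non-coding RNA gene Y37A1B.335 on the other strand. The native mir-57 gene is on chromosome II (7850499 to 7850597, minus strand), where T09A5.19, also non-coding, lies opposite. The deleted cluster of mir-54, mir-55 and mir-56 is on chromosome X, minus strand, between 13144691 and 13145094, within the span of the oppositely oriented protein-coding gene F09A5.3, and mir-55b is annotated opposite mir-55. mir-51 (11026013 to 11026112) and mir-53 (11027593 to 11027691), on chromosome IV, minus strand, overlap no other annotated gene. The lists of miRNA strands name only native sequences. The engineered guide has no name of its own in them, and whether its reads were counted as miR-57, as a family strand or not at all is not stated, so its level is not reported here. The strands listed as miR-57 or as family members may therefore include its products.

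The miR52to57seed libraries held 49117 and 82518 UMIs on miRNAs, against 104016 and 91810 in the miR-51null libraries. A UMI is a random tag that marks a ligated molecule. Reads per UMI were 1.63 and 1.15 in miR52to57seed, and 1.05 and 1.07 in miR-51null. Levels are given in scaled UMIs, which are UMIs per 1000000 miRNA UMIs outside the miR-51 family after TMM scaling. On this scale 1 UMI stood for 21.4 and 13.6 in the miR52to57seed libraries and for 9.81 and 11.4 in the miR-51null libraries. A change shared by all miRNAs cannot be seen on it. The miR-35 family, which is abundant in early embryos, took 52.6% and 53.5% of UMIs outside the miR-51 family in miR52to57seed, and 51.1% and 52.3% in miR-51null.

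The clearest difference lay in the family itself. The guides of the miR-54 cluster were 17.4- to 26.3-fold lower in miR52to57seed than in miR-51null, in both libraries of each strain. miR-54-3p stood at 107.1 and 108.4 scaled UMIs in miR52to57seed, 3442 and 2278 in miR-51null, and 32158 and 37917 in N2. It was lower in miR52to57seed than in miR-51null by a log2 fold change of -4.72 ± 0.33 (SE, adjusted p = 5.22e-08, edgeR quasi-likelihood test). miR-55-3p had levels of 149.9 and 311.7 in miR52to57seed and of 5355 and 3075 in miR-51null, a log2 fold change of -4.12 ± 0.39 (SE, adjusted p = 1.00e-06, edgeR). miR-56-3p had levels of 256.9 and 216.8 in miR52to57seed and of 5796 and 3838 in miR-51null, a log2 fold change of -4.36 ± 0.32 (SE, adjusted p = 5.31e-08, edgeR). These 3 guides come from 1 transcript, so they are not independent measurements. The passenger miR-55-5p had 0 UMIs in both miR52to57seed libraries, against 7 and 4 in miR-51null, which makes it at least 2.33-fold lower at a floor of 3 UMIs over the strain (adjusted p = 0.0272, edgeR). This call was lost without either miR52to57seed library or miR-51null replicate 1 (adjusted p up to 0.344, edgeR). Together these 4 were the family strands called at an adjusted p below 0.05, out of 12, where 6.17% of all 162 tested strands were called in this comparison.

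The summed level of the 3 cluster guides was 514 and 637 in miR52to57seed, against 14593 and 9190 in miR-51null. The sum in miR52to57seed was 0.0484 times that in miR-51null, and the exact permutation test with 2 libraries a strain gave p = 0.333, the smallest value it can reach (two-sided). The same sum was 980 and 588 in miR-52to51 and 455 and 338 in miR52to53, which carry the cluster deletion without an array. The miR52to57seed libraries thus lay within the range of the other strains without the cluster, and the miR-51null libraries stood above it. Relative to N2, the cluster guides in miR52to57seed were at 0.307% ± 0.036 for miR-54-3p, 0.503% ± 0.26 for miR-55-3p and 0.497% ± 0.083 for miR-56-3p. In miR-51null they were at 8.16% ± 2.5 for miR-54-3p, 9.19% ± 3.7 for miR-55-3p and 10.1% ± 3.1 for miR-56-3p (SD, n = 2 libraries a strain, spread of both strains combined). Of the 2 strains only miR-51null has lucEx1057, which holds the cluster. The part of the array in these levels was not tested.

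The family guides outside the cluster differed much less. miR-52-5p had 39 and 66 UMIs in miR52to57seed, a level of 835 and 894, against 77 and 124 UMIs in miR-51null, a level of 755 and 1412. The log2 fold change was -0.32 ± 0.31 (SE, adjusted p = 0.655, edgeR), and the libraries overlapped. miR-51-5p had levels of 257 and 352 in miR52to57seed and of 235 and 615 in miR-51null (log2 fold change -0.43 ± 0.46, SE, adjusted p = 0.664, edgeR). miR-53-5p rested on 3 and 4 UMIs in miR52to57seed and on 4 and 3 in miR-51null (adjusted p = 0.664, edgeR). Relative to N2, miR-52-5p was at 0.388% ± 0.095 in miR52to57seed and 0.486% ± 0.24 in miR-51null (SD, n = 2 libraries a strain). miR-51-5p was at 0.384% ± 0.10 in miR52to57seed and 0.536% ± 0.35 in miR-51null, and miR-53-5p at 0.627% ± 0.082 in miR52to57seed and 0.388% ± 0.043 in miR-51null (SD, n = 2). The family guides as listed therefore all stood below 1% of wild type in miR52to57seed. Both strains lack the native hairpins of mir-51, mir-52 and mir-53, as does miR-54C, which keeps only the miR-54 cluster. In miR-54C, miR-51-5p was at 0.421% ± 0.078, miR-52-5p at 0.395% ± 0.095 and miR-53-5p at 0.863% ± 0.44 of N2 (SD, n = 2). All 12 family strands were called lower in miR52to57seed than in N2, where 7.41% of the tested strands were called lower.

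**Figure D1:**
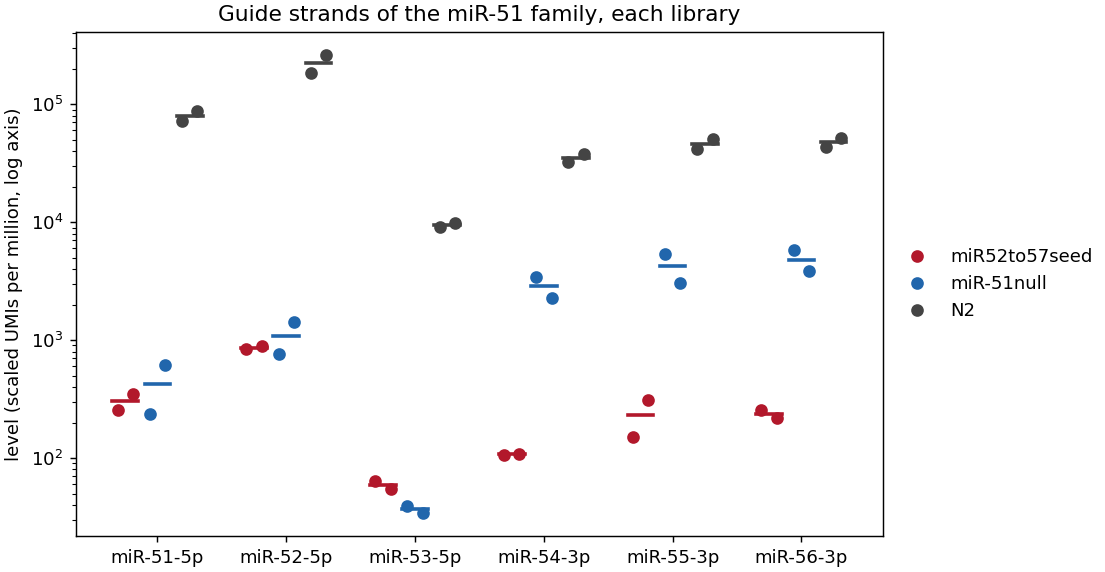
Level of each miR-51 family guide strand in scaled UMIs (log axis) in the 2 libraries of miR52to57seed, miR-51null and N2; points are libraries and bars are means. The 3 cluster guides on the right are lower in miR52to57seed than in miR-51null, and all 6 guides are far below N2 in both mutants.

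The strands listed as miR-57 were not shown to differ beside the added hairpin. Whether they count the native gene alone, or products of the engineered hairpin as well, was not tested, and this holds for both arms and their ratio. For the other hairpins exchanged at the mir-52 locus, miR-51-5p stood at 453735 and 315301 in miR-52to51, and miR-53-5p at 250406 and 214119 in miR52to53. No strand listed as miR-57 or as a family member reached such a level in miR52to57seed. Whether the flat miR-57 level reflects what the added hairpin yields was not tested. The guide, miR-57-5p, had 328 and 418 UMIs in miR52to57seed, a level of 7023 and 5664, and 596 and 553 UMIs in miR-51null, a level of 5845 and 6298. The miR-51null libraries lay between the miR52to57seed libraries, with a log2 fold change of 0.06 ± 0.23 (SE, adjusted p = 0.943, edgeR). The guide ranked 33 by mean level in both mutants, among 235 strands detected in miR52to57seed and 269 in miR-51null, and 37 among 328 in N2. Over the 14 other libraries its level ran between 5143 and 9234 with a median of 7566, and both miR52to57seed libraries were inside that range. N2 had 7889 and 8428, above both miR52to57seed libraries, and this difference was not called (log2 fold change -0.36 ± 0.23, SE, adjusted p = 0.54, edgeR).

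The passenger, miR-57-3p, rested on few UMIs. It had 13 and 19 UMIs in miR52to57seed, a level of 278 and 257, and 13 and 18 UMIs in miR-51null, a level of 127 and 205. Both miR52to57seed libraries were above both miR-51null libraries, as were the libraries for 21.6% of all tested strands, and the log2 fold change of 0.69 ± 0.42 did not pass the test (SE, adjusted p = 0.387, edgeR). Of the UMIs on the 2 arms, miR-57-3p took 3.81% (95% Wilson interval 2.24 to 6.41%) and 4.35% (2.80 to 6.69%) in miR52to57seed. In miR-51null it took 2.13% (1.25 to 3.62%) and 3.15% (2.00 to 4.93%). These intervals, like all others here, cover counting error only, and those of the strains overlap. The ratio of 3p to 5p was 0.0396 and 0.0455 in miR52to57seed, against 0.0218 and 0.0325 in miR-51null and 0.0135 to 0.0556 over the 14 other libraries. Its mean in miR52to57seed was 1.34 times that of these 14, and it was higher in 25 of the 28 library pairs (exact permutation over 120 arrangements, two-sided p = 0.192, smallest possible 0.00833). This test treats the duplicates of a strain as independent, so its smallest possible value is too low. The ratio was not shown to differ.

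**Figure D2:**
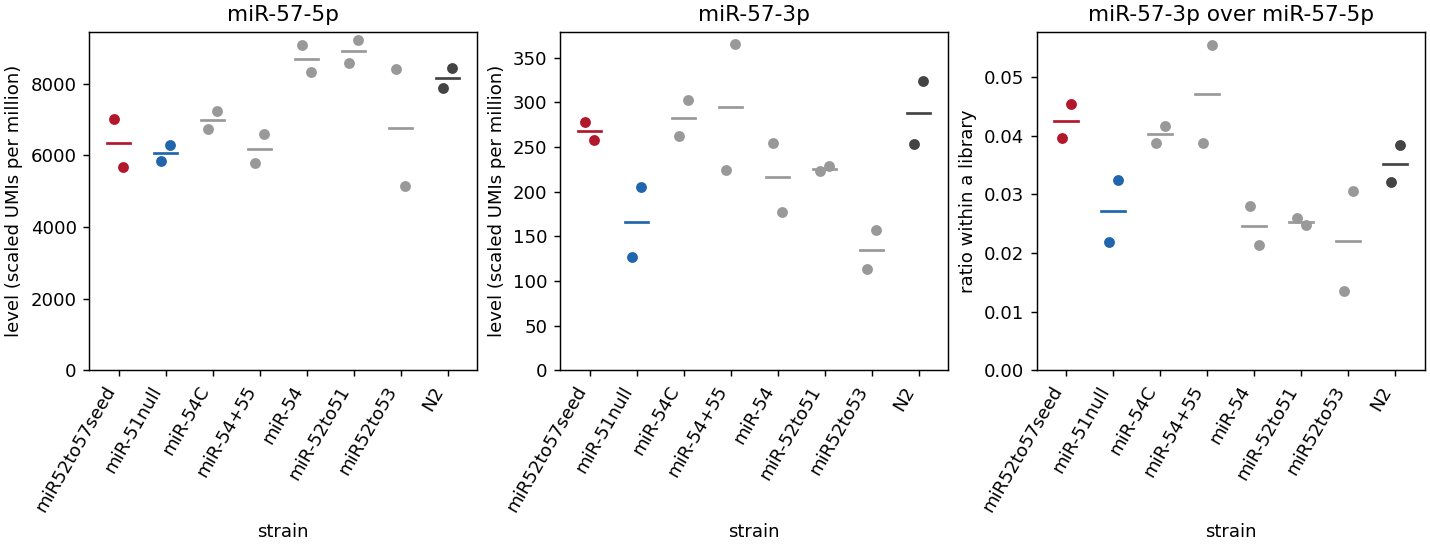
miR-57-5p and miR-57-3p in scaled UMIs, and their ratio within a library, in the 2 libraries of each of 8 strains; points are libraries and bars are means. miR52to57seed (red, left) lies inside the range of the other strains in all 3 panels.

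Most miRNAs outside the family were within 2-fold of each other in the strains. This held for 117 of 150 tested strands. Their log2 fold changes had a median of 0.03 over the 150, and 6 were called. Of these, 3 were higher and 3 lower, where 1.85% of all tested strands were called higher and 4.32% lower. At an unadjusted p below 0.05 there were 29. The 10 most abundant strands, which include miR-35-3p to miR-42-3p, miR-58a-3p and miR-72-5p, took 61.9% and 62.2% of the level outside the family in miR52to57seed, and 61.0% and 60.5% in miR-51null. Their log2 fold changes ran between -0.28 and 0.42, and their lowest adjusted p was 0.608 (edgeR). miR-35-3p, the most abundant, had levels of 118132 and 123195 in miR52to57seed and of 104104 and 146428 in miR-51null. Leaving out either miR52to57seed library left 0 of the 6 calls, with 16 and 15 strands at an unadjusted p below 0.05, and leaving out miR-51null replicate 1 left 2. Without miR-51null replicate 2, 6 strands were called, 1 higher and 5 lower, of which 2, miR-77-3p and lin-4-5p, were among the original 6.

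**Figure D3:**
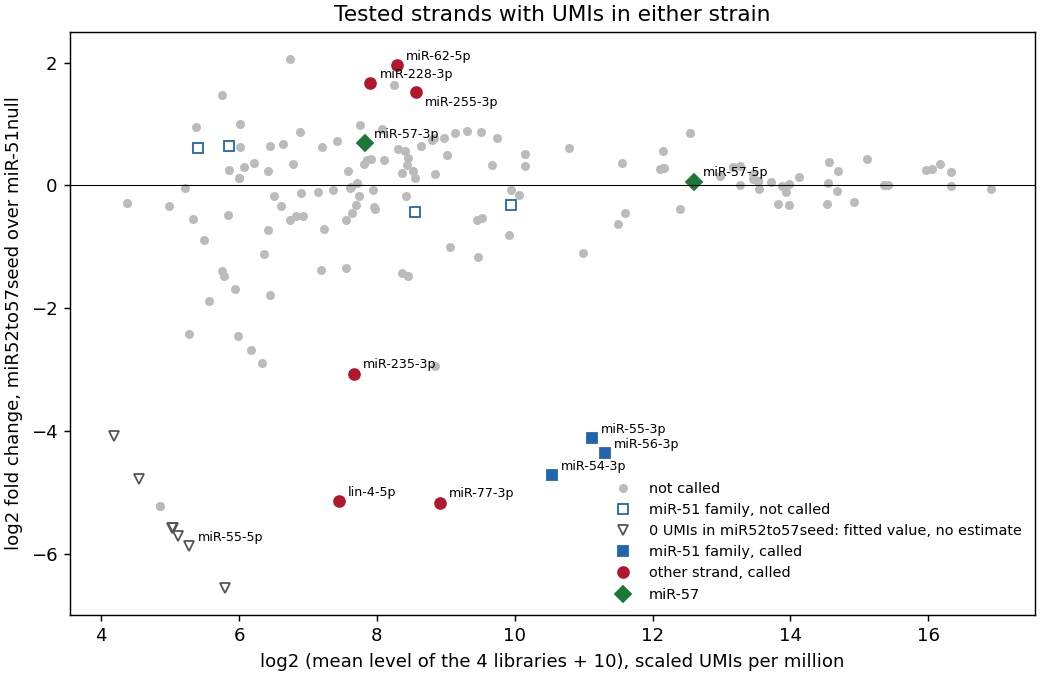
Log2 fold change of miR52to57seed over miR-51null (vertical) against the mean level of the 4 libraries (horizontal, log2) for each tested strand with a UMI in either strain. Named points are the strands called at an adjusted p below 0.05 and both arms of miR-57, at 0.06 and 0.69; the value of a strand with 0 UMIs in miR52to57seed (open triangles), miR-55-5p included, comes from the model and is no estimate of size.

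The 3 strands lower in miR52to57seed outside the family were miR-77-3p, miR-235-3p and lin-4-5p. miR-77-3p had 1 and 2 UMIs in miR52to57seed, a level of 21.4 and 27.1, against 145 and 37 UMIs in miR-51null, a level of 1422 and 421. The count ratio was 0.0260 (95% counting interval 0.0053 to 0.0771) and the adjusted p was 0.0233 (edgeR). lin-4-5p, the founding miRNA, which sets the timing of larval cell divisions, had 0 and 1 UMI in miR52to57seed and 47 and 16 UMIs in miR-51null. The ratio was 0.025 (0.000623 to 0.144) with an adjusted p of 0.0272 (edgeR). miR-235-3p, which shares the miR-92 seed and acts in larval blast cell quiescence, had 1 and 4 UMIs in miR52to57seed, a level of 21.4 and 54.2, against 34 and 32 UMIs in miR-51null, a level of 333 and 364. Its log2 fold change was -3.06 ± 0.78 (SE, adjusted p = 0.0307, edgeR). For all 3, both miR52to57seed libraries were far below both miR-51null libraries, whose replicates also differed from each other for miR-77-3p and lin-4-5p. Without miR-51null replicate 1 the log2 fold change was -4.06 for miR-77-3p and -4.34 for lin-4-5p, and without miR-51null replicate 2 it was -5.85 for miR-77-3p and -5.72 for lin-4-5p. That of miR-235-3p was -2.66 without miR52to57seed replicate 1 and -3.93 without miR52to57seed replicate 2, and its call was lost without any one of the 4 libraries. The calls of miR-77-3p and lin-4-5p were lost without either miR52to57seed library or miR-51null replicate 1, and stayed only without miR-51null replicate 2.

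These 3 strands were also lower in miR52to57seed than in each of the other 14 libraries. The 14 include the miR-51null libraries, against which the strands were picked as lower. The lowest of those 14 was 134 for miR-77-3p, 26.2 for lin-4-5p and 63.3 for miR-235-3p, and their medians were 422, 223 and 252. For lin-4-5p the lowest was 3 UMIs in miR-54C replicate 1, against 0 and 1 in miR52to57seed. For miR-235-3p it was 9 UMIs in N2 replicate 2, against 1 and 4 in miR52to57seed. At such counts the order of these libraries is uncertain. miR-71-5p and miR-239a-5p had the same position, so that 5 of the 150 strands outside the family were lowest in both miR52to57seed libraries, where 3.70% of all 162 tested strands were. N2 had the lowest of the other means for miR-235-3p, 90.0 and 63.3, and its levels of lin-4-5p were 105 and 42.2. Against N2 none of the 3 was called (edgeR adjusted p of 0.178 for miR-77-3p, 0.33 for lin-4-5p and 0.664 for miR-235-3p). Against the mean of the hairpin exchange strains miR-52to51 and miR52to53, all 3 were called, with an adjusted p of 0.0141 for miR-77-3p and lin-4-5p and 0.0463 for miR-235-3p (edgeR), where 4.32% of the tested strands were called. The 3 comparisons use the same miR52to57seed libraries, and their values are given side by side only.

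The 3 strands higher in miR52to57seed were miR-228-3p, miR-62-5p and miR-255-3p. miR-228-3p had 17 and 25 UMIs in miR52to57seed, a level of 364 and 339, against 14 and 7 UMIs in miR-51null, a level of 137 and 79.7. It is the rarer arm of glial miR-228, and its log2 fold change was 1.67 ± 0.43 (SE, adjusted p = 0.0314, edgeR). miR-62-5p had levels of 450 and 515 in miR52to57seed, and of 177 and 68.3 in miR-51null (log2 fold change 1.95 ± 0.53, SE, adjusted p = 0.0410, edgeR). miR-255-3p had levels of 557 and 542 in miR52to57seed, and of 284 and 91.1 in miR-51null (log2 fold change 1.52 ± 0.42, SE, adjusted p = 0.0414, edgeR). In each case the strains did not overlap, and the miR-51null replicates differed more from each other than the miR52to57seed replicates did. These calls depended on the settings, since miR-228-3p was called in 4 of 11 alternatives, miR-62-5p in 5 of 12 and miR-255-3p in 4 of 12. All 3 calls were lost without miR-51null replicate 2, where the log2 fold change was 1.29 for miR-228-3p, 1.40 for miR-62-5p and 0.89 for miR-255-3p, against 2.11, 2.79 and 2.56 without miR-51null replicate 1.

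For all 3, miR-51null had the lowest mean of the 8 strains. For miR-255-3p this was narrow, 188 against 192 in miR-52to51, whose libraries (156 and 229) lay between those of miR-51null. miR-228-3p had 319 and 281 in N2 and 79.7 to 356 over the 14 libraries other than miR52to57seed, and 137 and 79.7 were the miR-51null values. miR-62-5p was higher in N2, at 894 and 577, than in miR52to57seed. For miR-255-3p both miR52to57seed libraries were above the highest of the 14 others, 369. In all, 6 strands were highest in both miR52to57seed libraries, or 3.70% of the tested strands: miR-255-3p, miR-74-5p, miR-1-5p, miR-233-3p, miR-243-3p and miR-4813-3p. Of these only miR-255-3p was called against miR-51null. miR-74-5p, at 149.9 and 163 in miR52to57seed and 39.2 and 34.2 in miR-51null, had the largest difference of the 6, a log2 fold change of 2.06 ± 0.64 (SE, adjusted p = 0.0794, edgeR). miR-1822-5p, miR-82-5p and miR-40-5p were also higher without overlap and were not called. miR-40-5p, for example, had levels of 149.9 and 393 in miR52to57seed and of 137 and 148 in miR-51null. At the low end, the copies miR-5592-1-3p and miR-5592-2-3p share their reads and together held at most 1 UMI a library in miR52to57seed.

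**Figure D4:**
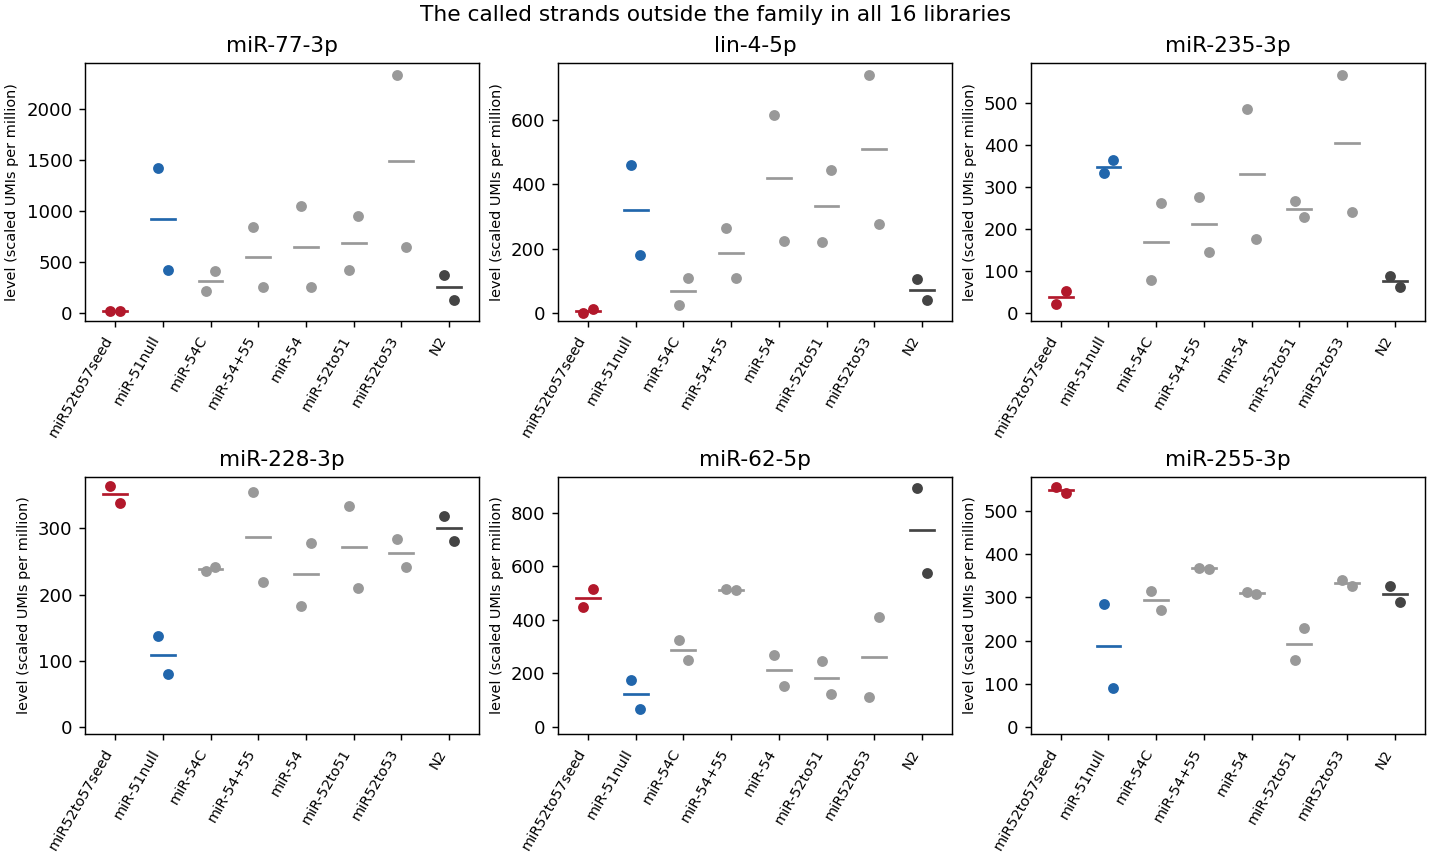
Levels in scaled UMIs of the 6 strands outside the family that were called between miR52to57seed and miR-51null, in both libraries of each of 8 strains; points are libraries and bars are means. In the upper row miR52to57seed (red) is below every other library, where the nearest held 3 UMIs for lin-4-5p and 9 for miR-235-3p. In the lower row miR-51null (blue) holds the lowest mean, for miR-255-3p only narrowly (188 against 192 in miR-52to51). Only for miR-255-3p is miR52to57seed above every other library.

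Of the lists of related miRNAs, those of larval timing and stress miRNAs had the lowest medians. In the let-7 family, whose members act in the timing of larval development, 4 of 7 listed strands were counted and tested. None was called, where 6.17% of all tested strands were. All 4 were lower in both miR52to57seed libraries than in both miR-51null libraries, where 24.1% of tested strands were. let-7-5p had levels of 214 and 149 in miR52to57seed and of 461 and 535 in miR-51null (log2 fold change -1.48 ± 0.68, SE, adjusted p = 0.230, edgeR). miR-48-5p had levels of 149.9 and 67.8 in miR52to57seed and of 814 and 774 in miR-51null (log2 fold change -2.94 ± 1.04, SE, adjusted p = 0.154, edgeR). Among the 14 other libraries both strands varied widely, let-7-5p between 111 and 852 and miR-48-5p between 146 and 2508. miR-84-5p and miR-241-5p had 0 UMIs in miR52to57seed, against 18 and 9 UMIs over the miR-51null libraries, and were at least 3.81-fold and 1.90-fold lower at a floor of 3 UMIs over the strain. With these set at their bounds the family's median log2 fold change was -1.70, beside 0.03 over the strands outside the miR-51 family.

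The lin-4 family holds lin-4-5p and miR-237-5p, which share a seed. miR-237-5p had 0 UMIs in miR52to57seed and 9 over the miR-51null libraries, at least 1.90-fold lower. Of the stress and lifespan miRNAs, miR-71-5p, required for a normal adult lifespan, had levels of 1199 and 1369 in miR52to57seed and of 2550 and 2984 in miR-51null (log2 fold change -1.10 ± 0.49, SE, adjusted p = 0.230, edgeR). miR-239a-5p had levels of 171 and 176 in miR52to57seed and of 657 and 273 in miR-51null, and miR-34-5p, the worm member of the p53-linked miR-34 family, had 0 and 2 UMIs in miR52to57seed and 12 and 6 in miR-51null. All 3 were lower without overlap, where 24.1% of tested strands were, and none was called, where 6.17% were. The list's median log2 fold change was -1.42, that of miR-239a-5p, which was -0.67 without miR-51null replicate 1 and -1.97 without miR-51null replicate 2, where it was called (adjusted p = 0.0443, edgeR). In N2, miR-71-5p was at 1393 and 1639, between the mutants.

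The other 8 lists held 37 tested strands outside these families. None was called in miR52to57seed against miR-51null, where 6.17% of all 162 tested strands were. Their medians ran between -0.28 for the miR-72 family and 0.31 for the miR-2 family, and 7 of the 8 turned sign under at least 1 alternative setting, while that of the miR-2 family did not. The miR-35 family, needed for embryonic viability, had a median log2 fold change of 0.11 over 8 guides (-0.041 with DESeq2 and -0.011 without a filter on low counts) and a summed level of 552226 and 597082 in miR52to57seed, against 512951 and 540605 in miR-51null. The miR-58 family, the worm relatives of bantam, had a median of -0.10 over 4 strands (0.035 without miR52to57seed replicate 2). miR-2-3p, the most abundant of its family, had levels of 24153 and 30463 in miR52to57seed and of 23537 and 18460 in miR-51null (log2 fold change 0.38 ± 0.23, SE, adjusted p = 0.387, edgeR). Among miRNAs enriched in a tissue, muscle miR-1-3p had levels of 14389 and 14378 in miR52to57seed and of 16614 and 19269 in miR-51null (log2 fold change -0.32 ± 0.41, SE, adjusted p = 0.695, edgeR). Neuronal miR-124-3p had levels of 6081 and 4052 in miR52to57seed and of 5227 and 3075 in miR-51null, with overlap. Without overlap, miR-2-3p was higher and miR-1-3p lower. Of the 7 tested strands enriched in a tissue, 2 were higher and 3 lower without overlap, where 21.6% and 24.1% of all tested strands were. The most abundant strands of the remaining lists overlapped between the strains. miR-45-3p had levels of 13244 and 10943 in miR52to57seed and of 12298 and 10693 in miR-51null, and miR-64-5p 17430 and 19826 in miR52to57seed and 13426 and 20442 in miR-51null. miR-90-3p had 24838 and 23823 in miR52to57seed and 20821 and 26534 in miR-51null.

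**Figure D5:**
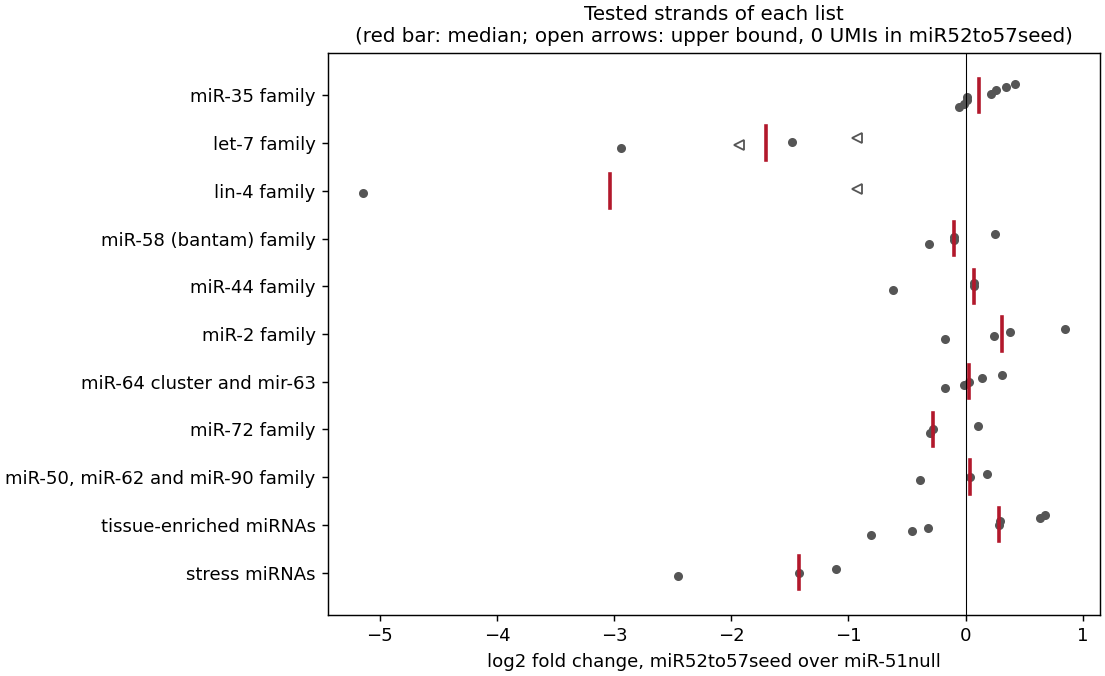
Log2 fold change of miR52to57seed over miR-51null for the tested strands of each list (points), with the list's median (red bar); open arrows mark strands with 0 UMIs in miR52to57seed, drawn at the bound that a floor of 3 UMIs gives. The let-7, lin-4 and stress lists lie left of 0, and the medians of the other 8 lie between -0.28 and 0.31.

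A pattern noticed after the values were seen concerned the rarer arms. At 49 loci outside the family both arms were tested and the more abundant arm, taken as the guide, exceeded the other at least 2-fold by mean over all 16 libraries. The median log2 fold change over miR-51null was 0.06 for the guides and 0.42 for the passengers, and the passenger had the higher value at 35 of 49 loci. Of the 49 passengers 2 were called, miR-228-3p and miR-62-5p, both higher, where 1.85% of all tested strands were called higher. Their guides miR-228-5p and miR-62-3p had log2 fold changes of -0.45 and 0.19. miR-86-3p and miR-44-5p, which earlier results of these data name, showed the same without a call. Their log2 fold changes were 1.63 ± 0.51 (SE, adjusted p = 0.0805, edgeR) and 0.77 ± 0.35 (SE, adjusted p = 0.230, edgeR). Other passengers fell, such as miR-232-5p with -1.11. Without overlap, 19 passengers were higher and 4 lower, where 21.6% and 24.1% of all tested strands were. Passengers took 1.88% (95% Wilson interval 1.76 to 2.01%) and 1.98% (1.88 to 2.08%) of the UMIs at these loci in miR52to57seed. In miR-51null they took 1.21% (1.14 to 1.27%) and 1.78% (1.70 to 1.87%), and in N2 1.91% and 1.90%. Of all 16 libraries, miR-51null replicate 1 had the lowest share and miR52to57seed replicate 2 the highest. The 12 libraries of the other strains, N2 included, ran between 1.50% and 1.96%. Against N2 the medians were 0.03 for guides and -0.07 for passengers. Over miR-51null, the passenger and guide medians were 0.19 and 0.11 without miR-51null replicate 1, and 0.61 and -0.06 without miR-51null replicate 2. They were 0.56 and 0.09 without miR52to57seed replicate 1, and 0.16 and 0.14 without miR52to57seed replicate 2. The gap between the arms thus depended on single libraries of both strains, and its cause was not tested. The called passengers miR-228-3p and miR-62-5p were lower in miR-51null replicate 2 than in replicate 1, and their log2 fold changes were 2.11 and 2.79 without replicate 1.

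Against N2 the only call outside the family, with all strains in the fit, was miR-78-3p, higher in miR52to57seed, where 0.617% of the tested strands were called higher. A fit of miR52to57seed and N2 alone called 23, of which 8 were higher and 15 lower, and without a filter on low counts 5 were called, 2 higher and 3 lower. It had levels of 385 and 108 in miR52to57seed, 206 and 159 in miR-51null and 62.9 and 35.2 in N2, with a log2 fold change over N2 of 2.12 ± 0.58 (SE, adjusted p = 0.0295, edgeR). Both mutants were above N2, and miR52to57seed and miR-51null overlapped (log2 fold change 0.35 ± 0.57, SE, adjusted p = 0.802, edgeR). Without N2 replicate 1 or N2 replicate 2 no strand outside the family was called, with 2 and 7 at an unadjusted p below 0.05, and without miR52to57seed replicate 1 miR-78-3p was not called. miR-70-3p had levels of 149.9 and 528 in miR52to57seed, 539 and 888 in miR-51null and 98.5 and 98.5 in N2. The miR52to57seed libraries lay above N2 and below miR-51null, and neither difference was called (log2 fold change over N2 1.84 ± 0.62, SE, adjusted p = 0.104, edgeR, and adjusted p = 0.369 over miR-51null).

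Against the mean of miR-52to51 and miR52to53, 5 strands outside the family were called. Beside the 3 strands above, miR-244-5p was lower, with levels of 492 and 379 in miR52to57seed, 1559 and 2865 in miR-52to51 and 1023 and 990 in miR52to53 (log2 fold change -1.79, adjusted p = 0.0463, edgeR). miR-42-3p of the miR-35 family was higher, at 44324 and 43242 in miR52to57seed against 29970 and 26105 in miR-52to51 and 24665 and 30445 in miR52to53 (log2 fold change 0.65, adjusted p = 0.0395, edgeR). Its level in miR52to57seed was close to that in miR-51null, 42858 and 44072, and in N2, 44065 and 46015. It was not called with scaling to the sum of strands outside the family (log2 fold change 0.40), without the filter, with at least 50 UMIs or with only the compared strains in the fit. Leaving out either miR52to57seed library or miR-52to51 replicate 2 left 0 of these calls, with 16, 17 and 18 strands at an unadjusted p below 0.05. Without miR-52to51 replicate 1 or miR52to53 replicate 2, 3 of the 5 were called, and without miR52to53 replicate 1 none of the 5 was, while 1 other strand was.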

How the data were processed

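Barcoded small RNA libraries of comma-stage embryos were sequenced, with spike-ins that are not used here, so levels are relative. The authors assigned reads to miRNA strands of build WBcel235 with a Nextflow pipeline whose version is not given in the sources used here. The deposited values are estimated counts of reads and of UMIs, divided where a read fits several strands (7.13% of UMI values were fractions), and a count of UMIs in full. Strands missing from a library's list were taken as 0. Divided UMIs were rounded. Strands that reached 10 UMIs in 2 or more of 16 libraries were tested by edgeR 4.0.16 (R 4.3.3) quasi-likelihood, all strains in 1 fit (biological coefficient of variation 25.3%), with library sizes and TMM over strands outside the miR-51 family and Benjamini-Hochberg adjustment over 162 strands. SE is the log2 fold change over the square root of F. The edgeR steps were run on simulated counts in which all strands had the same spread, so that run does not bear on the calls of rare strands. Ratios used exact permutation tests (scipy 1.17.1). Libraries held between 18481 and 844718 UMIs on miRNAs. Each strain had its own adapter barcodes, so barcode and strain cannot be told apart. The labels call the duplicates biological. Near-identical strands such as miR-44-3p and miR-45-3p share reads and are uncertain. Called strands, family and miR-57 strands, the most abundant strands, the largest changes and each list's most abundant strand were named. Strands called against other strains, those outside the range of all other libraries, miR-124-3p, miR-34-5p and guides of called passengers were named after their values were seen. Other scalings, DESeq2 1.42.0, reads, UMIs in full, other filters, fits on the compared strains, a replicate block and leaving out libraries were tried. The strands, lists and rules were chosen with earlier results of these data known.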

Additional observations from a re-analysis of the deposited data

How the results depend on the processing

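Between miR52to57seed and miR-51null, the 3 guides of the miR-54 cluster stayed called and lower under every setting tried. Leaving out a library gave log2 fold changes of -5.05 to -4.41 for miR-54-3p, -4.77 to -3.69 for miR-55-3p and -4.68 to -4.05 for miR-56-3p. miR-55-5p was no longer called with DESeq2, with only the compared strains in the fit, or without either miR52to57seed library or miR-51null replicate 1. The summed cluster guides stood at 0.0394 to 0.0626 times miR-51null when a library was left out. The 6 calls outside the family became 3 (0 higher, 3 lower, with 21 and 17 strands at an unadjusted p below 0.05) with DESeq2 and with at least 50 UMIs in 2 libraries, where miR-228-3p was too rare to be tested, and between 0 and 6 when a library was left out, where a strain left with 1 library was assumed to vary like the others. Sum scaling (4 calls), no filter (8) and a fit on the compared strains (6) each left 1 higher call. The 1 call outside the family against N2 became 2 with DESeq2, 5 (2 higher, 3 lower) without a filter on low counts, 0 with at least 50 UMIs (8 at an unadjusted p below 0.05), 23 (8 higher, 15 lower) with only the 2 strains in the fit, and 0 to 1 when a library was left out. The 5 calls against miR-52to51 and miR52to53 became 9 with DESeq2, 10 without the filter, and 0 to 4 when a library was left out. The causes of these changes were not tested.

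The log2 fold change of miR-57-5p, 0.06 and not called, turned to -0.020 with scaling to the sum of strands outside the family, -0.090 with DESeq2, -0.056 without the filter, -0.044 with at least 50 UMIs, -0.019 with only the compared strains, and lay between -0.10 and 0.25 when a library was left out. Without a library, the uncalled values ran between -1.01 and 0.34 for miR-51-5p, -0.72 and 0.14 for miR-52-5p, and -0.75 and 1.11 for miR-78-3p. The median over strands outside the family, 0.03, was -0.064 with sum scaling, -0.14 with DESeq2, -0.041 with at least 50 UMIs, -0.065 with only the compared strains and -0.033 without miR-51null replicate 2. The passenger median stayed between 0.16 and 0.61 and the guide median ran between -0.090 and 0.14. Within 1 setting they came closest without miR52to57seed replicate 2, at 0.16 for passengers and 0.14 for guides. miR-48-5p was called lower without the filter or with only the compared strains in the fit, miR-71-5p without the filter, miR-239a-5p without miR-51null replicate 2, and miR-74-5p higher on reads or with the replicate block.

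The labels give both strains replicate numbers 1 and 2 and do not say that a number marks a shared culture. Deviations of same-numbered libraries of miR52to57seed and miR-51null correlated at r = 0.13 over strands. With the replicate number as a block, the calls outside the family were 7 against miR-51null, 1 against N2 and 3 against miR-52to51 and miR52to53, where miR-235-3p and miR-244-5p were not called (adjusted p = 0.0511 for each, edgeR).

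Depth limits the rare strands, since 1 UMI stood for 21.4 scaled UMIs in the smaller miR52to57seed library. A level set by 5 UMIs or fewer, as for lin-4-5p, miR-77-3p and miR-235-3p, is known no better than counting error allows. Replicates of both strains differed by more than counting error over the strands. For miR-235-3p no counting interval was computed.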
